A study of Mus musculus with 4 samples.

Results

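Cadherins and protocadherins are calcium-binding adhesion proteins of the cell surface. The genes described here were those whose symbol begins with Cdh followed by a number, or with Pcdh followed by letters or numbers, which gave 92 of the 32285 gene identifiers in the deposited matrices (91 symbols, since Pcdha11 had 2 identifiers). They comprised 23 cadherins, 12 protocadherins outside the gene clusters, 14 alpha, 22 beta and 21 gamma protocadherins. Their RNA was measured by single-nucleus RNA-seq, in which transcripts of single droplet-captured nuclei are counted by unique molecular identifiers (UMIs), in the brain without cerebellum of wild-type C57BL/6 mice aged 10 weeks. Dry ice was used to freeze all tissue (10 min), and up to 50 mg went into each extraction of nuclei. The 4 libraries crossed the way the brain was taken with the way the nuclei were preserved, and each combination had 1 library. In the post-mortem libraries the brain was removed after cervical dislocation, and in those labelled in vivo, called anaesthetised here, it was removed through a craniotomy under deep isoflurane. The extracted nuclei were either left unfixed or held for 30 min in 80% methanol at -20 °C before loading on a droplet kit that captures the 3′ end of transcripts. The comparisons address how methanol and the way of harvest relate to the counts. With 1 library per group no difference had a replicate check, so no test across samples was made, and the intervals below are exact 95% intervals that cover counting error only. Harvest cannot be told apart from the animal or the piece of tissue, and the labels do not state whether 1 brain gave both the fixed and the unfixed nuclei.

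Classical cadherins bind their own kind across the gap between cells, and their cytoplasmic tails are anchored to actin through beta-, alpha- and p120-catenin. Protocadherins have tails that do not bind catenins. Those outside the gene clusters, such as Pcdh10, Pcdh17 and Pcdh19, recruit the WAVE actin regulator, whereas the clustered alpha, beta and gamma isoforms are chosen in single neurons by promoter looping through CTCF and cohesin and give each neuron its own surface identity. In brain these families are known for sorting axons, arranging layers and nuclei, and building synapses. Pcdh15 and Cdh23 are best known from the inner ear, where both form the tip link of hair cells.

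To show where transcription of the genes on which the results turn starts, the 250 bases before the annotated start are printed for 6 of them, 5′ to 3′ on the gene's strand, from the RefSeq table for GRCm38.p6, which held 22 of the 91 symbols. Capitals mark motifs searched on both strands: the TATA box (TATAAA, in 12.4% of the 32851 promoters of the table), the CCAAT box (CCAAT, in 33.8%), the GC box (GGGCGG, in 32.7%), a Sox-type motif (ACAAAG, in 16.5%) and an E-box (CACGTG, in 6.02%). The windows lie at chr14:93890680-93890929 (minus strand) for Pcdh9, chr10:73821617-73821866 (plus strand, inside the longer gene model of the count annotation) for Pcdh15, chr10:60696491-60696740 (minus strand) for Cdh23, chr1:104768270-104768519 (plus strand) for Cdh20, chr14:84443313-84443562 (plus strand) for Pcdh17 and chr15:13173676-13173925 (minus strand) for Cdh6.
Pcdh9: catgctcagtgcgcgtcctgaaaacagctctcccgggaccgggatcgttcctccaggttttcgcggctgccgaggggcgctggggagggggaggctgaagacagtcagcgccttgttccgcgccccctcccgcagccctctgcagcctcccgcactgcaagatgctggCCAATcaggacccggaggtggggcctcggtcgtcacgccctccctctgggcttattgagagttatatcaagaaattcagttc
Pcdh15: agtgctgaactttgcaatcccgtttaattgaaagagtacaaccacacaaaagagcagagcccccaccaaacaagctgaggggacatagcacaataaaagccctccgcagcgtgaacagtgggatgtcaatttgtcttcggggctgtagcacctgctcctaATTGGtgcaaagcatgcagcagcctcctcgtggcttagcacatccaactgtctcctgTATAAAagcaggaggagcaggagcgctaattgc
Cdh23: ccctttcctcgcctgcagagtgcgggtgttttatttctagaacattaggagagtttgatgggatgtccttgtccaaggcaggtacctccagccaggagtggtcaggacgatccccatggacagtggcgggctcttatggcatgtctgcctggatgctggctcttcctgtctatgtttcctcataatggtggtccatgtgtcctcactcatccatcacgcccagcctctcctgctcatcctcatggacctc
Cdh20: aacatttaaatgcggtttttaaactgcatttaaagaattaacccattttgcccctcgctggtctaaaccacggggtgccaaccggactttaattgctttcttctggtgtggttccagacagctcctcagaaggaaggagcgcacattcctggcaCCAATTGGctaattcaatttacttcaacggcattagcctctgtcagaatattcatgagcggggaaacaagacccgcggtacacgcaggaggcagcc
Pcdh17: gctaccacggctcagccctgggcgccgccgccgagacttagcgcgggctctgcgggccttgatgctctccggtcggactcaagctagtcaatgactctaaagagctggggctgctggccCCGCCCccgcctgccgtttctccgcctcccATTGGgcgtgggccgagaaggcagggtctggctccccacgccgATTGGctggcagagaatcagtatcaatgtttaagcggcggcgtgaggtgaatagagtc
Cdh6: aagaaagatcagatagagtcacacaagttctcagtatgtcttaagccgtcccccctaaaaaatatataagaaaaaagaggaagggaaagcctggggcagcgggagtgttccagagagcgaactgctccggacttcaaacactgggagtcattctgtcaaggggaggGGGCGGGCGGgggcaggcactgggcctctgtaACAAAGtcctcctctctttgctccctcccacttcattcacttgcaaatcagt
The Pcdh17 and Pcdh9 windows held 21 and 18 CG dinucleotides, against a median of 6 over all promoters, while those of Cdh23, Pcdh15 and Cdh6 held 5, 6 and 6. The CCAAT box was found on 1 strand or the other in the windows of Pcdh9, Pcdh15, Cdh20 (2 overlapping matches on opposite strands) and Pcdh17, the TATA box only in that of Pcdh15 among the 6, and the GC box in those of Pcdh17 (1 match) and Cdh6 (2 overlapping matches). The Cdh23 window held none of the motifs. A match describes letters in the window and no more.

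The libraries held 7650 to 17862 barcodes and 64312917 to 82408017 UMIs. After filters and removal of called doublets (9.03% to 14.7% of nuclei), 6822 to 15235 nuclei per library were kept, with median depths of 3785 UMIs (post-mortem unfixed), 6293.5 (post-mortem methanol), 3035 (anaesthetised unfixed) and 7830 (anaesthetised methanol). Both methanol libraries were thus deeper per nucleus than both unfixed ones. Pairs of libraries shared 61 to 210 barcodes. Nuclei were clustered without the cadherin and protocadherin genes, and 7 classes named by other markers were large enough in every library to compare. Between 23.0% and 27.5% of nuclei stayed unnamed.

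Cadherins and protocadherins made up 0.912%, 1.07%, 0.898% and 1.01% of all UMIs in the post-mortem unfixed, post-mortem methanol, anaesthetised unfixed and anaesthetised methanol libraries, an order kept for every set of 4 values below. The protocadherins outside the clusters gave 63.3% of these UMIs and the cadherins 36.1%, whereas beta protocadherins gave 0.629%, alpha 0.0153% and gamma 0.00805%. Of the 92 genes, 22 reached a mean of 10 CPM (UMIs per 1000000 UMIs of the library), 14 cadherins and 8 protocadherins outside the clusters. Pcdh9 (ENSMUSG00000055421, chr14:93013410-93890679, minus strand, mm10), a non-clustered protocadherin, alone held 38.7% of the UMIs, at 3734, 4350, 3282 and 3663 CPM. Pcdh15 followed with a mean of 905 CPM, Pcdh7 with 866 and Cdh18 with 772. The order by library is drawn in the plot of levels.

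**Figure D1:**
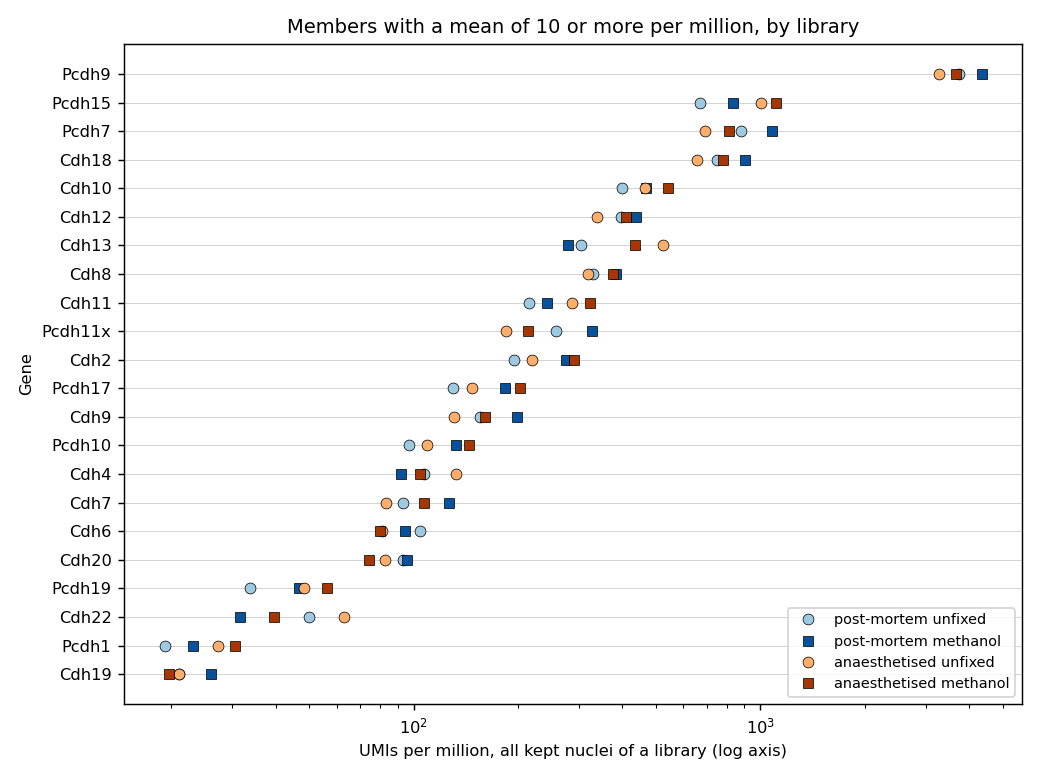
CPM of all kept nuclei (log axis) for the 22 genes with a mean of 10 or more, 1 point per library. Pcdh9 stands highest in every library, and the 4 libraries of a gene mostly lie closer to each other than the genes do across the range.

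These genes span very different stretches of genome, from Pcdh15 at 1550 kb and Cdh12 at 1140 kb to Pcdh8 at 4.54 kb. Per 100 kb of gene span the mean level was 428 CPM for Pcdh9, 240 for Cdh10, 211 for Pcdh10 and 208 for Pcdh7, and it was 58.4 for Pcdh15 and 34.7 for Cdh12. On this scale Pcdh8, an activity-regulated protocadherin with only 7.47 CPM in all, reached 165 CPM per 100 kb, close to the 174 of Pcdh17 and of Cdh11. Whether intronic reads were counted is not given in the sources used here, so both scales are needed.

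The clustered isoforms were low. All 22 beta genes were detected, from 0.0252 CPM (Pcdhb1) to 9.75 CPM (Pcdhb14), with a median of 1.40, and together they summed to 54.0, 73.2, 49.8 and 65.9 CPM. Pcdhb17, Pcdhb19 and Pcdhb16 followed Pcdhb14 at 7.69, 5.97 and 5.41 CPM. Per 100 kb, Pcdhb17 stood at 165 CPM, in the range of the non-clustered genes. Of 14 alpha genes only Pcdha1 had any UMI in the kept nuclei, and of 21 gamma genes only Pcdhga1. The models of all 14 alpha and 21 gamma genes overlap one another on the same strand, as variable first exons that join shared constant exons, and how such overlaps were counted is not given in the sources used here, so a value of 0 for an isoform is not a measure of its absence. Among single genes outside the clusters, the lowest were Pcdh12, an endothelial protocadherin, with 2 UMIs in all, Cdh16 with 5 UMIs, Cdh17 at 0.0779 CPM, the epithelial cadherins Cdh1 and Cdh3 at 0.111 and 0.120 CPM, and Cdh5, the endothelial VE-cadherin, at 0.269 CPM. Cdh5 was 88.0 CPM in the endothelial-like cluster (25 UMIs over all libraries), which held 12 to 39 nuclei per library. It was also 69.3 CPM in a fibroblast-like cluster led by Slc6a20a and Slc6a13.

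The question of which cells carried each gene was asked over 7 classes: excitatory-like (1610 to 3544 nuclei per library), inhibitory-like, medium-spiny-like, astrocyte-like, oligodendrocyte precursor (OPC)-like (139 to 287), oligodendrocyte-like and microglia-like nuclei (318 to 622). Pcdh15 and Pcdh11x were highest in OPC-like nuclei, Cdh23 in microglia-like nuclei, and Pcdh9, Cdh20 and Cdh19 in oligodendrocyte-like nuclei, while the type II cadherins Cdh12 and Cdh18 were highest in excitatory-like, Cdh8 in medium-spiny-like and Cdh9 in inhibitory-like nuclei. The summed level of all 92 genes also differed by class: it was 1.35% to 1.64% of UMIs in oligodendrocyte-like, 1.5% to 1.71% in OPC-like, 1.04% to 1.3% in excitatory-like, 0.645% to 0.788% in medium-spiny-like and 0.0487% to 0.297% in microglia-like nuclei. The medium-spiny-like and microglia-like ranges lie below the others and do not overlap them. A gene was said to stand out where its level in 1 class was at least 2-fold above every other class in each of the 4 libraries. Of 24 members measured in a class, 3 stood out, against 14.8% of all 10707 genes measured. They were Pcdh15 and Pcdh11x in OPC-like nuclei, where 1.07% of all genes stood out, and Cdh23 in microglia-like nuclei, where 6.52% did. The highest class was the same in all 4 libraries for 16 of the 24, against 51.4% of all genes.

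Pcdh15 (ENSMUSG00000052613, chr10:73099342-74649737, plus strand), the tip-link protocadherin, had 3667, 3820, 3835 and 3870 CPM in OPC-like nuclei and its next class, inhibitory-like nuclei, averaged 1184 CPM. The OPC-like level was 2.41 to 3.42 times the next class of the same library. It varied further within classes, since an inhibitory-like cluster led by Gna14 and Adamts5 held 4459 CPM. On the opposite strand inside Pcdh15 lies the non-coding gene Gm15398 (chr10:73201399-73327175), which averaged 125 CPM in OPC-like nuclei. Because the strand setting of the counts is not given, reads of the 2 genes cannot be told apart. Pcdh11x (chrX:120290259-120910619, plus strand), an X-linked non-clustered protocadherin, had 856, 1149, 758 and 1107 CPM in OPC-like nuclei and a mean of 348 in astrocyte-like nuclei. It stood 2.32 to 2.54 times above the next class. Among clusters, its highest level was 1374 CPM in a medium-spiny-like cluster led by Prok2 and Lrrc38, which was also the top cluster of Pcdh19 at 106 CPM. With called doublets kept, neither Pcdh15 nor Pcdh11x stood out by this rule and Cdh23 was the single gene that did.

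Cdh23 (ENSMUSG00000012819, chr10:60302748-60696490, minus strand), the other tip-link protein, had 470, 156, 445 and 223 CPM in microglia-like nuclei and at most a mean of 4.44 in any other class. The microglia-like level was 41.1 to 56.9 times the next class. After thinning each nucleus to 1000 UMIs, 31.7%, 13.9%, 32.0% and 19.9% of microglia-like nuclei had a Cdh23 UMI (33.3%, 13.4%, 28.8% and 20.4% unthinned), against 0.0497% to 0.186% of excitatory-like nuclei (0.447% to 1.24% unthinned). The thinned shares left out 295, 271, 547 and 127 microglia-like nuclei, whose class had median depths of 919, 940.5, 741 and 1053 UMIs, while the excitatory-like medians were 4904 to 12463.5. Vsir, an immune checkpoint gene, lies within Cdh23 on the opposite strand (chr10:60346851-60372684) and had 299, 489, 317 and 574 CPM in microglia-like nuclei. It too was low elsewhere, at 13.4 CPM in OPC-like and 8.03 in astrocyte-like nuclei. The Cdh23 count in microglia-like nuclei therefore cannot be told apart from reads of Vsir. The known tip-link partner genes were low, with Whrn at 19.0, Cib2 at 5.97 and Lhfpl5 at 4.7 CPM over all nuclei, and 1 of 9 reached the minimum for measurement.

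**Figure D2:**
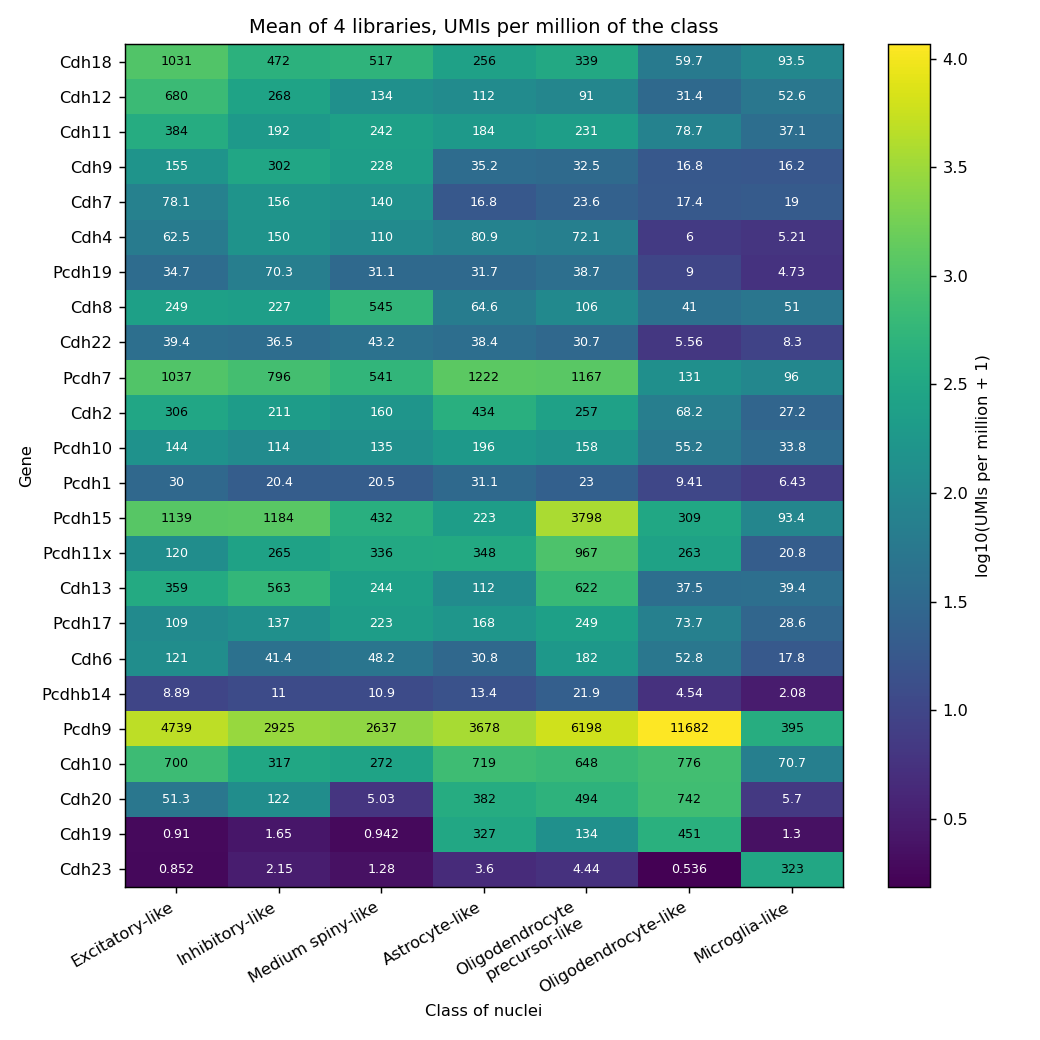
Mean CPM over the 4 libraries (numbers in the cells, log colour scale) for the 24 genes measured in 7 classes. Pcdh15 and Pcdh11x are highest in the precursor column, Cdh23 in the microglia column and Pcdh9, Cdh20 and Cdh19 in the oligodendrocyte column.

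Oligodendrocyte-like nuclei were led by Pcdh9, with 10405, 12304, 10834 and 13186 CPM. OPC-like nuclei averaged 6198, excitatory-like 4739 and microglia-like 395 CPM, and a small newly formed oligodendrocyte-like cluster reached 17543 CPM, above the mature class in each library. Cdh20, a type II cadherin, averaged 742 CPM in oligodendrocyte-like, 494 in OPC-like and 382 in astrocyte-like nuclei, but 5.03 in medium-spiny-like nuclei. Cdh19, a type II cadherin known from glia of the Schwann cell lineage, had 350, 522, 372 and 561 CPM in oligodendrocyte-like and 286, 366, 301 and 356 CPM in astrocyte-like nuclei. In the 3 neuronal classes its means were 0.910, 1.65 and 0.942 CPM. Within each library the oligodendrocyte-like level was 1.22 to 1.58 times the astrocyte-like one, and across libraries the 2 ranges overlap. Cdh10 was spread more evenly, at 776, 719, 700 and 648 CPM in oligodendrocyte-like, astrocyte-like, excitatory-like and OPC-like nuclei. Cdh2, the N-cadherin of neural tissue, was highest in astrocyte-like nuclei at 295, 498, 429 and 516 CPM, as were Pcdh10 (mean 196), Pcdh7 (1222, against 1167 in OPC-like nuclei) and Pcdh1 (31.1). OPC-like nuclei had the highest mean of Cdh13, the GPI-anchored T-cadherin (622, against 563 in inhibitory-like nuclei), of Pcdh17 (249) and of Cdh6 (182).

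Among neurons, Cdh12 had 813, 826, 495 and 587 CPM in excitatory-like nuclei, 1.86 to 3.33 times the next class. Cdh18 averaged 1031 CPM there and was 1.72 to 2.27 times the next class, and Cdh11 averaged 384. Single clusters went further, with Cdh18 at 4102 CPM and Cdh13 at 1731 CPM in a layer 6b-like cluster, Cdh12 at 1904 and Cdh6 at 340 CPM in a layer 4-like cluster, and Cdh11 at 762 CPM in a cluster led by Mirt1 and Tshz2. Cdh8, a type II cadherin found in cortical and striatal circuits, had 504, 630, 480 and 565 CPM in medium-spiny-like nuclei and was 1.74 to 2.65 times the next class. Cdh9 (mean 302), Cdh7 (156), Cdh4 (150) and Pcdh19 (70.3) were highest in inhibitory-like nuclei, and Cdh9 and Cdh7 had their top cluster in the Sst-like nuclei at 820 and 326 CPM. The Cdh7 mean rested on unequal libraries, with 154, 256, 100 and 114 CPM in inhibitory-like nuclei, and medium-spiny-like nuclei averaged 140. Cdh22 had no leading class, with means of 30.7 to 43.2 CPM in every neuronal class and in astrocyte-like and OPC-like nuclei.

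Fixation was compared as the log2 ratio of methanol to unfixed CPM within each harvest. In all nuclei, 16 of the 22 measured genes were higher after methanol in both pairs, 4 were lower in both and 2 had opposite signs. None of the 22 reached 2-fold in both pairs, where 0.296% of all 9790 genes were higher and 2.18% lower by that rule. The members' median log2 ratios were 0.27 (post-mortem) and 0.22 (anaesthetised), and those of all genes were -0.03 and -0.02, with 40.9% of all genes positive in both pairs. Cdh2 had 194, 275, 219 and 290 CPM, log2 ratios of 0.50 [0.47 to 0.54] and 0.40 [0.37 to 0.44], and Pcdh17 had 130, 183, 148 and 203 CPM, with 0.50 [0.45 to 0.54] and 0.46 [0.42 to 0.50]. In both genes the 2 methanol libraries lay above both unfixed ones. The share of all genes whose libraries separate in this way is not given, here or for the genes below. Pcdh10, Cdh7 and Pcdh19 followed at 0.45 and 0.39, 0.44 and 0.36, and 0.47 and 0.23. The genes that were lower in both pairs were Cdh22, Cdh4, Cdh13 and Cdh6. Cdh22 differed most, with 50.0, 31.6, 62.8 and 39.6 CPM and log2 ratios of -0.66 [-0.75 to -0.58] and -0.66 [-0.74 to -0.59], so that both methanol libraries lay below both unfixed ones. Over the clusters with 100 nuclei in every library, Cdh22 was lower in both pairs in 11 of 12, Cdh4 in 11 of 12 and Cdh13 in 11 of 14, while Pcdh9 was higher in both in 13 of 14, Pcdh10 in 12 of 14 and Pcdh17 in 11 of 14. These clusters come from the same 4 libraries and are not replicates. No share of all genes is given over clusters. In all nuclei, 47.1% of all genes were lower and 40.9% higher in both pairs. Of the 22 genes, 5 overlap no gene on the opposite strand, and of these 3 were higher and 1 (Cdh6) lower in both pairs. Their medians were 0.24 and 0.17, against 0.02 and 0.02 for all genes without such overlaps. The strand setting is not given, so reads of the other members, Cdh22, Cdh4 and Cdh13 among them, cannot be told apart from opposite-strand reads.

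**Figure D3:**
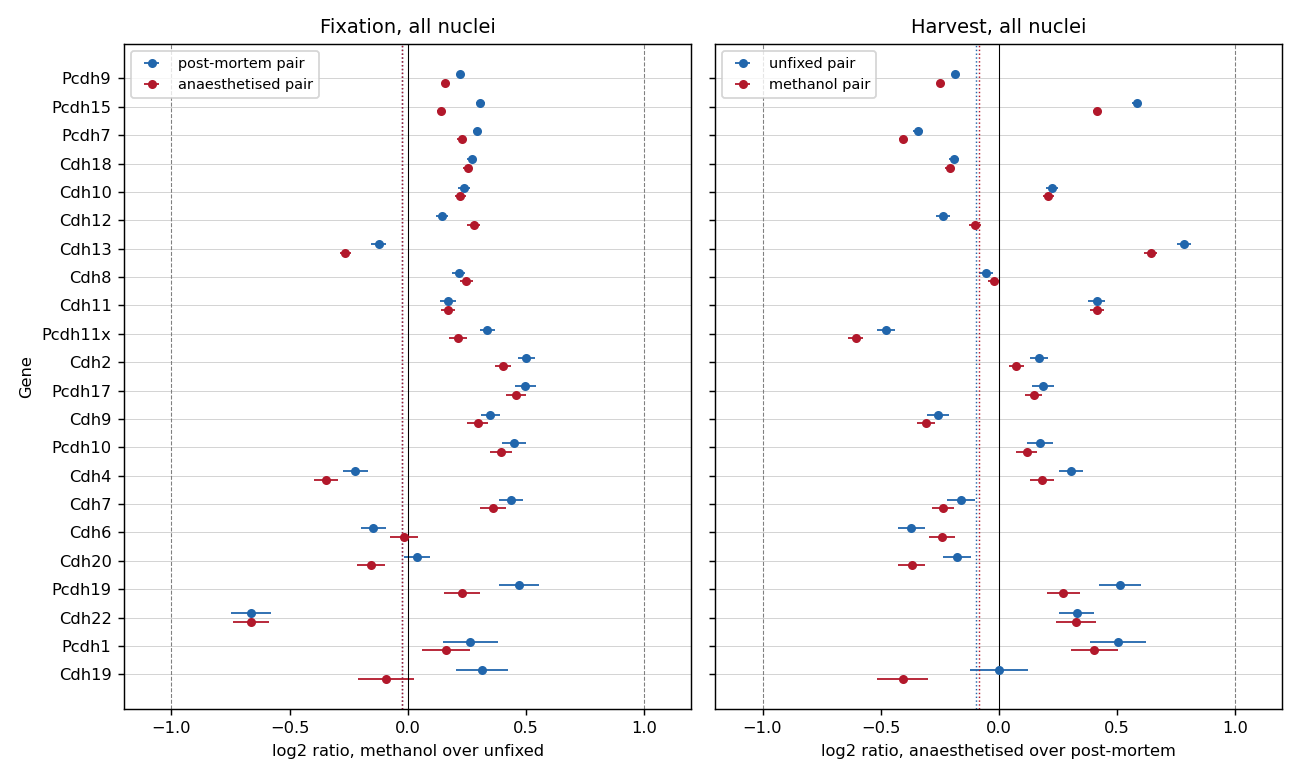
Log2 ratios in all nuclei of methanol over unfixed (left) and anaesthetised over post-mortem (right) for the 22 measured genes, with 95% counting intervals as bars, dashed lines at 2-fold and dotted lines at the median of all genes. Most genes lie right of 0 on the left, with Cdh22 farthest to the other side, and Cdh13 and Pcdh11x lie farthest out on the right.

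The long introns of many members raised the question whether gene span alone went with these ratios, a split made after the values were seen. Among genes other than members with a span of 300 kb or more, the median fixation ratios were 0.05 and -0.01 over 536 genes, and for the 9 members of that span they were 0.22 and 0.21. For spans of 100 to 300 kb the medians were -0.06 and -0.12 over 1568 other genes and 0.24 and 0.22 over 9 members. Depth per nucleus was higher in both methanol libraries, and its part in these ratios was not tested.

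Sums over all nuclei cannot tell fewer cells of a type from less RNA per cell, so the ratios were also taken within classes. There, 12 of 139 gene and class combinations (8.63%) differed 2-fold in the same direction in both pairs, against 4.55% of the combinations of all genes. With called doublets kept there were 3, of which 1 (Cdh13 in microglia-like nuclei) was among the 12. Cdh22 was lower after methanol in astrocyte-like nuclei, at 52.3, 23.1, 54.5 and 23.8 CPM (log2 -1.16 [-2.06 to -0.35] and -1.16 [-2.15 to -0.32], where 1.6% of all genes were lower). In OPC-like nuclei Cdh8 was higher, at 66.3, 164, 62.8 and 129 CPM (1.29 [0.63 to 2.03] and 1.03 [0.38 to 1.73], against 0.943% of all genes). Cdh9 was lower there at 77.3, 22.6, 21.7 and 8.34 CPM (-1.74 and -1.28, against 1.17%), though the second interval, -3.51 to 0.42, includes 0. For Cdh22 and Cdh8 the fixed and unfixed libraries do not overlap, whereas for Cdh9 the post-mortem methanol value lies above the anaesthetised unfixed one. Cdh8 and Cdh9 were highest in neuronal classes, and 40 neuronal markers gave 0.843%, 0.914%, 0.843% and 0.864% of UMIs in OPC-like nuclei. The part of neuronal RNA in these 2 ratios was not tested. With a gate on the markers of each nucleus in place of clusters, Cdh8 was not called, and Cdh22 and Cdh9 were. In oligodendrocyte-like nuclei, where 7.95% of all genes were lower, Cdh13 had 44.1, 16.4, 73.9 and 15.5 CPM (-1.42 and -2.23) and Cdh9 23.7, 7.21, 34.7 and 1.54 CPM (-1.69 and -4.18 [-7.57 to -2.58]). Cdh13 and Cdh9 were both higher in every neuronal class, and the summed level of 40 neuronal markers in oligodendrocyte-like nuclei was 0.276%, 0.197%, 0.296% and 0.195% of UMIs, with 35 to 39 of the 40 detected. Cdh13 was highest in OPC-like nuclei, and the 9 OPC markers gave 0.0192%, 0.0222%, 0.0273% and 0.0212% of UMIs in oligodendrocyte-like nuclei. The part of neuronal or OPC RNA in the result was not tested. Pcdh9 and Cdh19, which lead that class, were higher there after methanol, with log2 ratios of 0.24 and 0.28, and 0.58 and 0.59. The 12 oligodendrocyte markers together also had higher levels there after methanol, at 2.17%, 3.13%, 1.91% and 3.24% of UMIs, and their part in these ratios was not tested. Pcdh15 in OPC-like nuclei had 0.06 [-0.04 to 0.16] and 0.01 [-0.08 to 0.11].

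The remaining 7 combinations were in microglia-like nuclei. All 13 members measured there were lower after methanol in both pairs, against 33.0% of all genes. Of the 13, 7 were lower by 2-fold, against 7.49% of all genes. The members' medians were -1.17 and -3.07, and those of all genes -0.01 and 0.08. Pcdh9 had 424, 171, 896 and 89.9 CPM (-1.3 [-1.71 to -0.92] and -3.30 [-3.89 to -2.79]), and Cdh2, Cdh13, Cdh18, Pcdh7, Pcdh10 and Pcdh17 were the other 6. All of the 13 but Cdh23 had their highest level in another class. The 40 neuronal markers together gave 0.196%, 0.0825%, 0.249% and 0.0484% of UMIs in microglia-like nuclei, with 31 to 38 of the 40 detected. Drd1, Drd2, Emx1, Htr3a, Lhx6, Neurod6, Pvalb, Rorb and Tbr1 were at 0 in the anaesthetised methanol library. Of these, Htr3a, Lhx6 and Tbr1 were at 0 also in an unfixed library. The 12 microglial markers gave 1.32%, 2.35%, 1.11% and 2.41%. Markers of other glia in these nuclei gave 0.0753%, 0.0323%, 0.0609% and 0.0162% (12 of oligodendrocytes), 0.0115%, 0.00476%, 0.0196% and 0.00348% (9 of OPCs) and 0.0442%, 0.0416%, 0.0665% and 0.0441% (12 of astrocytes). The neuronal, oligodendrocyte, OPC and astrocyte sums were thus all lower after methanol in both pairs, as the members were, and the part of RNA from other cells in the result was not tested. A small cluster with microglial markers and high UMI counts (13, 2, 72 and 16 nuclei) was left out of the class. With it included, 11 of 20 members were lower in both pairs and 1 higher, with medians of -1.23 and -0.21. Of the 7, only Cdh13 was still 2-fold lower in both. Pcdh9, Pcdh7, Pcdh17 and Cdh2 changed sign in the anaesthetised pair, to 0.43, 0.12, 0.19 and 0.22. With a gate on the markers of each nucleus in place of clusters, 11 of 18 were lower in both pairs and 1 higher, with medians of -1.05 and -0.27. Of the 7, only Cdh18 was still 2-fold lower in both, and Pcdh9, Pcdh17 and Cdh2 stood at 0.44, 0.62 and 0.08 in the anaesthetised pair. With called doublets kept, 17 of 18 were lower in both pairs. Cdh23 itself was lower after methanol (-1.59 [-2.0 to -1.2] and -0.99 [-1.39 to -0.61]), past 2-fold in the first pair and just short of it in the second, while Vsir on the opposite strand was higher in both methanol libraries.

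**Figure D4:**
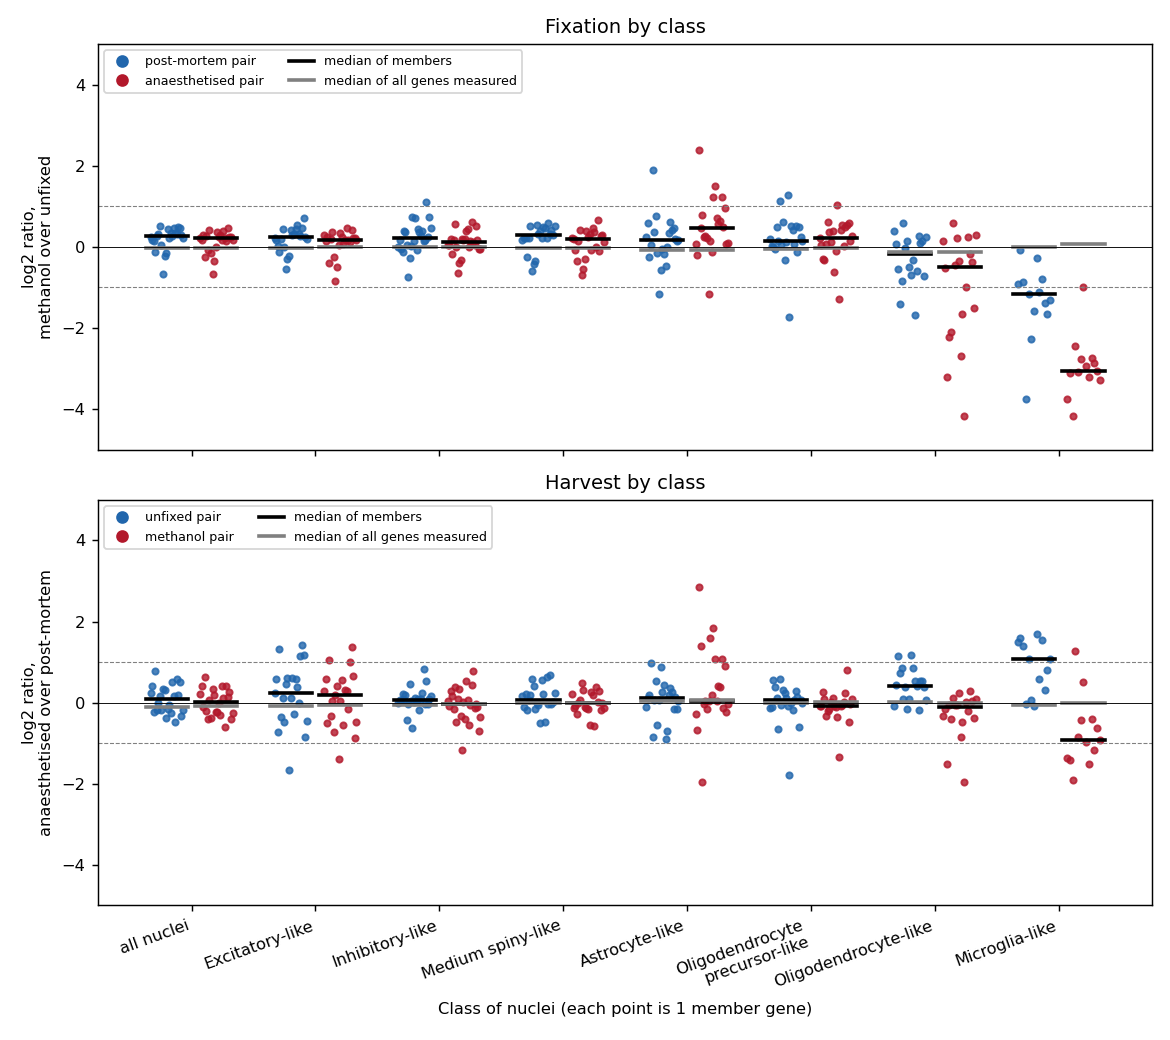
Log2 ratios of each measured member by class, fixation above and harvest below, with black bars at the members' median and grey bars at the median of all genes measured in that class. In the fixation panel the microglia-like members sit below 0 in both pairs, with medians of -1.17 and -3.07, and in the harvest panel each of them lies on opposite sides of 0 in the 2 pairs. Both patterns are for the class without its high-UMI cluster, and both changed with that cluster kept.

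Harvest was compared as the log2 ratio of anaesthetised to post-mortem CPM within each state of fixation. In all nuclei the 22 members were evenly divided, 11 higher and 11 lower in both pairs. Their medians were 0.09 (unfixed) and 0.03 (methanol), against -0.10 and -0.09 for all genes. None reached 2-fold in both pairs, where 0.337% of all genes were higher and 0.123% lower. Cdh13 differed most, with 304, 280, 524 and 436 CPM (0.78 [0.75 to 0.81] and 0.64 [0.61 to 0.67]), and both anaesthetised libraries lay above both post-mortem ones. Pcdh15 had 672, 832, 1007 and 1110 CPM (0.58 and 0.42). On the other side Pcdh11x had 258, 326, 185 and 214 CPM (-0.48 and -0.60) and Pcdh7 879, 1078, 694 and 813 CPM (-0.34 and -0.41). In each of these 4 genes the libraries of the 2 harvests do not overlap, and the share of all genes for which this holds is not given.

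Within classes, 4 of 139 combinations differed 2-fold by harvest in both pairs, against 0.625% of the combinations of all genes, and 3 of them were in excitatory-like nuclei. Cdh13 (chr8:118283733-119324921, plus strand) had 229, 209, 567 and 430 CPM there (1.31 [1.26 to 1.37] and 1.04 [0.99 to 1.09]), and Pcdh17 (chr14:84443563-84539002, plus strand), which is known for organising cortico-striatal synapses, had 50.3, 69.5, 136 and 181 CPM (1.43 [1.32 to 1.55] and 1.38 [1.29 to 1.46]), where 1.11% of all genes were higher. Cdh6 (chr15:13028701-13173675, minus strand), a type II cadherin known from sensory circuits, had 193, 165, 61.6 and 63.0 CPM (-1.65 [-1.75 to -1.55] and -1.39 [-1.48 to -1.3]), where 0.687% of all genes were lower. In each of the 3 genes both libraries of 1 harvest lay on the same side of both libraries of the other. Cdh13 and Pcdh17 overlap genes on the opposite strand, whose reads cannot be told apart from theirs, and Cdh6 does not. The last combination was Cdh9 in OPC-like nuclei (-1.79 and -1.33, the second with an interval of -3.54 to 0.32, where 0.325% of all genes were lower), which changed sign under 2 other settings.

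The excitatory-like class was not made up alike in the 2 harvests. A layer 4-like cluster, the top cluster of Cdh6 and Cdh12, held 17.8% and 15.4% of excitatory-like nuclei post-mortem but 0.339% and 0.186% in the anaesthetised libraries, and an excitatory-like cluster without a layer name, led by BC006965 and 4930467D21Rik held 13.8%, 16.2%, 29.8% and 33.3%. The ratios were therefore taken again within the 4 excitatory-like clusters that had 100 nuclei in every library. These clusters come from the same 4 libraries and are not replicates. Cdh13 was higher in the anaesthetised libraries in 4 of 4, by log2 ratios of 0.64 to 2.90 (unfixed) and 1.17 to 2.47 (methanol). In the layer 2-3-like cluster led by Ccbe1 it had 91.3, 86.6, 682 and 481 CPM. Pcdh17 was higher in 4 of 4, by 1.3 to 2.27 and 1.75 to 1.98. Cdh6 was lower in both pairs in 3 of 4, with 266, 242, 60.8 and 52.6 CPM in the Ccbe1 cluster, and the exception was the layer 6 corticothalamic-like cluster led by Col5a1, at -0.31 and 0.09. Pcdh7 was lower in 4 of 4 (medians -0.83 and -0.87) and Pcdh15 higher in 3 of 4. With the small excitatory-like clusters left out of the class, the ratios were 1.62 and 1.45 for Cdh13, 1.71 and 1.75 for Pcdh17 and -1.66 and -1.45 for Cdh6, so these differences were as large without the layer 4-like cluster. They cannot be told apart from a difference between the animals or in the region sampled.

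**Figure D5:**
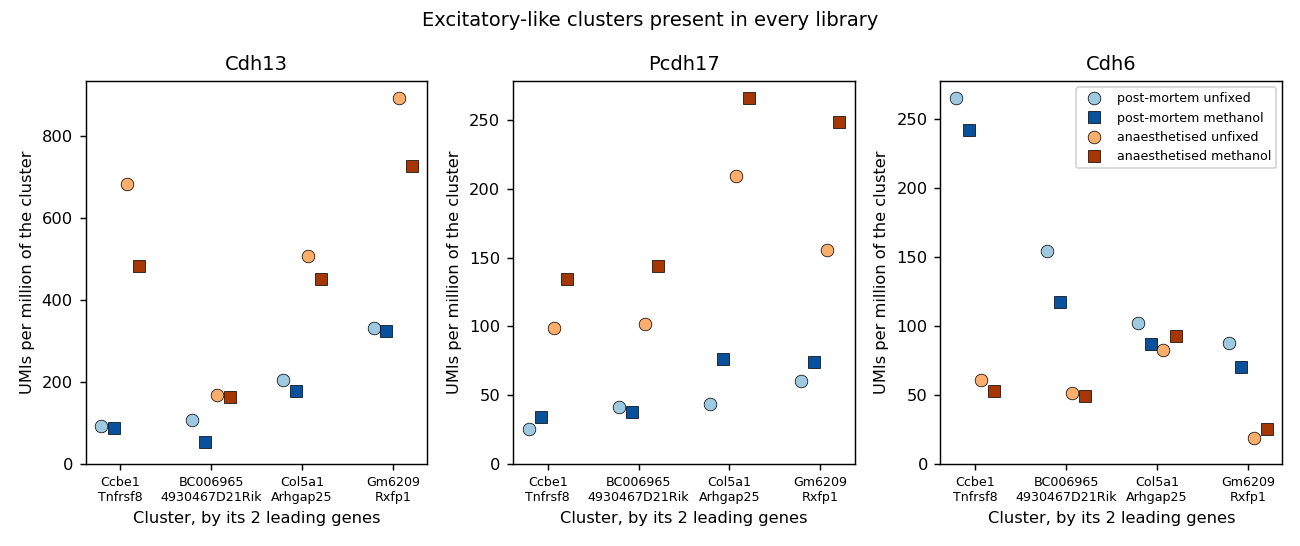
CPM of Cdh13, Pcdh17 and Cdh6 in each library within the 4 excitatory-like clusters that had 100 nuclei in every library. Both anaesthetised libraries lie above both post-mortem ones for Cdh13 and Pcdh17 in all 4 clusters, and below them for Cdh6 in all but the Col5a1 cluster.

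Of the proteins that work with cadherins, the catenins that anchor their tails were well detected, with means over all nuclei of 1855 CPM for Ctnna2, 1357 for Ctnnd2, 82.2 for Ctnnd1 and 30.3 for Ctnnb1. Ctnna3, an alpha-catenin, was the 1 of 6 measured catenins that differed 2-fold after methanol, with 595, 267, 445 and 196 CPM (-1.16 and -1.19), where 2.18% of all genes were lower. It was lower by that rule also in excitatory-like, medium-spiny-like, OPC-like and microglia-like nuclei. In these classes 215 of 9170, 246 of 9012, 72 of 6152 and 487 of 6498 genes were lower. In oligodendrocyte-like nuclei, where Ctnna3 was highest, it had 1627, 1496, 1552 and 1416 CPM (-0.12 and -0.13). Because the strand setting is not given, its reads cannot be told apart from those of any gene on its opposite strand. Of the other cadherin superfamily genes, led by Fat3 (632 CPM), Clstn2 (353), Clstn1 (114) and Clstn3 (100), 0 of 9 measured differed 2-fold in all nuclei, as did 0 of 11 genes of the WAVE complex and focal adhesion kinases (Ptk2 351, Abi2 199, Nckap1 176, Wasf1 167). None of the 9 CTCF and cohesin genes (Stag1 393, Nipbl 176) did so either, and Adam10, a protease that cuts cadherins from the cell surface, averaged 91.9 CPM. By harvest, no gene of these lists differed 2-fold in all nuclei. Within classes, Clstn3 (-1.87 and -1.80) and Cyfip2 (-1.11 and -1.41) were lower after methanol in oligodendrocyte-like nuclei, where 7.95% of all genes were lower, and Clstn2, Clstn3, Wasf1 and Ptk2 in microglia-like nuclei, where 7.49% were. The neuronal markers, whose sums are given above, were also lower after methanol in both of these classes, and their part in these differences was not tested. Psenen was higher after methanol in OPC-like nuclei (2.38 and 1.22), as were 0.943% of all genes, and Celsr1 was higher in the anaesthetised libraries in astrocyte-like nuclei (1.19 and 1.29), as were 64 of 8385 genes.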

How the data were processed

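The authors deposited 4 matrices of UMI counts, 1 per library and per gene and barcode, with mm10 as the genome build per the submitters' processing notes. Annotation, strand setting, treatment of intronic reads, aligner and cell caller are not given in the sources used here. Kept nuclei had 500 or more UMIs, 300 or more genes and at most 5% mitochondrial UMIs. Doublets called by Scrublet (expected rate 6%, in scanpy 1.11.5) were left out, which differed between libraries. Nuclei of the 4 libraries were clustered together from 2000 variable genes, members left out, with 40 principal components, 20 neighbours and Leiden resolution 1 (leidenalg 0.10.2), giving 45 clusters. Clusters were named from marker lists (3 or more markers at 2-fold and in 10% of nuclei), and 2 glial clusters with 3 or more times the relative UMIs of the largest cluster of their class were left out, a rule set after the cluster tables were seen. UMIs were summed per class and library and scaled to CPM (per 1000000 UMIs). Classes with 100 nuclei and 100000 UMIs in every library were compared, for genes with a mean of 10 CPM and, within classes, 50 UMIs. A gene was called at 2-fold in the same direction in both pairs, with 0.5 counts added for log2 ratios. Intervals are exact conditional (ratios, numpy 2.4.6 and scipy 1.17.1), and gene spans and overlaps come from GENCODE M21, matched by identifier for 32235 of 32285 genes. The ratio code was tested on simulated data.

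The text names every member with 10 CPM or more, every member called, the 3 highest of each class, and the highest and called genes of the other lists. The result of 1 further gene list is not reported here. Other genes named for low levels, clusters or opposite strands were chosen after their values were seen. The members and the marker and gene lists were chosen with earlier results of these data known. Alternatives were other scaling, no CPM minimum, 1000 UMIs per nucleus, doublets kept, 1.5-fold, no genes with opposite-strand overlaps, classes weighted equally, clusters made with the members and a marker gate per nucleus, and 2 added after the data were seen.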

Additional observations from a re-analysis of the deposited data

Results flagged for a closer look

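Cdh12 in oligodendrocyte-like nuclei was picked out because its harvest ratio pointed in opposite directions in the 2 states of fixation. The library values were 30.3, 20.7, 67.7 and 6.95 CPM (post-mortem unfixed, post-mortem methanol, anaesthetised unfixed, anaesthetised methanol), and the log2 ratio of anaesthetised to post-mortem was 1.15 in the unfixed pair and -1.51 in the methanol pair. Pcdh9 in microglia-like nuclei was picked out in the same way, with log2 ratios of 1.08 and -0.914. That class left out the small cluster with high UMI counts, and all 13 measured members had opposite signs in it. With the cluster kept, 18 of 20 members were higher in the anaesthetised libraries in both pairs and 1 lower, with medians of 1.03 and 2.24. With the marker gate, 14 of 18 were higher and 1 lower, with medians of 0.90 and 1.72. For Cdh12 and Pcdh9 the difference between the pairs was not tested, since each group had 1 library. Cdh12 had its highest level in excitatory-like nuclei and Pcdh9 in oligodendrocyte-like nuclei. In oligodendrocyte-like nuclei the neuronal markers summed to 0.276%, 0.197%, 0.296% and 0.195% of UMIs. In microglia-like nuclei the neuronal sum was highest in the anaesthetised unfixed library (0.249%) and lowest in the anaesthetised methanol library (0.0484%). The oligodendrocyte markers there gave 0.0753%, 0.0323%, 0.0609% and 0.0162%, highest in the post-mortem unfixed library. The part of RNA from other cells in these values was not tested.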

How the results depend on the processing

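No paired analysis was possible because each group held 1 library, so there were no replicate numbers to use as a block, and the comparisons within pairs of libraries carry no test. Counting error was the error that could be given, and it was widest in OPC-like and microglia-like nuclei. The 3 genes that stood out in a class became 6 with no CPM minimum, 1 with doublets kept, 7 at 1.5-fold and 0 without genes that overlap the opposite strand. That last setting removes genes and changes no ratio of those it keeps, so each count lost under it was lost because the genes themselves were left out. The 12 fixation differences within classes became 3 with doublets kept (1 of them among the 12), 25 at 1.5-fold and 0 without opposite-strand overlaps, and of the 12, 6 remained with the high-UMI glial clusters kept and 3 with the marker gate. The 4 harvest differences within classes became 12 at 1.5-fold, 1 (Cdh6) without opposite-strand overlaps, 11 with the marker gate and 13 with the high-UMI glial clusters kept. Cdh13, Pcdh17 and Cdh6 in excitatory-like nuclei were among those 11 and 13. In all nuclei the count of 0 became 1 at 1.5-fold for fixation (Cdh22) and for harvest (Cdh13), and 1 for fixation with classes weighted equally (Cdh23). With doublets kept, Cdh9 in OPC-like nuclei reversed to 0.13 (fixation, post-mortem) and 0.22 (harvest, unfixed). With the marker gate, Cdh9 harvest in OPC-like nuclei reversed to 0.12 and 0.27, and fixation in microglia-like nuclei in the anaesthetised pair to 0.62 for Pcdh17, 0.44 for Pcdh9 and 0.081 for Cdh2. With the high-UMI clusters kept, the same ratio reversed to 0.12 for Pcdh7, 0.19 for Pcdh17, 0.43 for Pcdh9 and 0.22 for Cdh2. The cause of these changes was not tested. Median-of-ratios scaling moved the median fixation ratio of all genes in oligodendrocyte-like nuclei from -0.12 and -0.13 to 0.07 and 0.08, and that of the members from -0.17 and -0.49 to 0.02 and -0.28. In all nuclei it gave 16 members positive and 3 negative for fixation, and 12 and 9 for harvest. With classes weighted equally, 14 of 24 members were positive and 5 negative for fixation, with medians of 0.20 and 0.07. For harvest 10 were positive and 9 negative under that setting.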
